A study of Mus musculus with 16 samples.

Results

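The genes described here are 32 mouse genes of protein folding and stress in the endoplasmic reticulum (ER), the compartment where secreted and membrane proteins are made, out of 27179 genes in the deposited table. They were chosen by name and function as a list, with earlier results of these data known. The list holds 4 genes of the stress sensors and their transcription factor and 9 of the chaperone BiP and its helpers. It also holds 7 of the calnexin cycle and disulfide isomerases, 7 of ER-associated degradation and 5 of the translocon. All 32 were found in the table and all 32 passed the filter on low values in each comparison. RNA came from 16 libraries of 4 mouse tumour organoid (MTO) lines, 3-dimensional cultures of tumour epithelium in basement-membrane extract. MTO54 and MTO220 carry the genotype AKP, usually read in this field as lesions that include Apc and Trp53, and are labelled wild type for Tgfbr2. MTO100 and MTO101 carry the genotype APT, read likewise as lesions of Apc and Trp53 together with Tgfbr2, the gene of a TGF-beta receptor. All lines were kept in full medium for 4 days, with EGF at 50 ng/ml, the BMP antagonist noggin at 100 ng/ml and 1 µM galunisertib, which blocks the kinase of the type I TGF-beta receptor. AKP lines were also grown for 7 days with TGF-beta1 and without galunisertib, here called TGF-beta medium, and APT lines for 7 days without EGF. Each line and medium has 2 libraries, from consecutive passages of 1 line (passages 14 and 15 of MTO54, 10 and 11 of MTO220 and MTO100, 8 and 9 of MTO101), the earlier in sequencing pool 1 and the later in pool 2. Medium cannot be told apart from day 4 against day 7, nor passage from pool, and p-values measure the spread between these libraries.

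As background, proteins that enter the ER are folded by the chaperone BiP and the calnexin cycle, given disulfide bonds by isomerases, and sent back to the cytosol for degradation when they fail to fold. When unfolded proteins accumulate, 3 membrane sensors, IRE1, PERK and ATF6, start the unfolded protein response. IRE1 splices the messenger RNA of Xbp1 so that it encodes an active transcription factor, PERK slows translation, and ATF6 moves to the Golgi and is cut to release a transcription factor. Their targets include most of the chaperones and degradation genes listed here, and in the gut the response is best known from mucus-secreting goblet cells and granule-making Paneth cells. Splicing of Xbp1, cutting of ATF6 and phosphorylation of PERK cannot be read from gene totals.

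The libraries held 17056053 to 22251986 reads on genes, and values, called normalised reads, are those reads over the size factors of the authors (0.868 to 1.16). Per library the 32 genes together took 0.626% to 0.776% of reads in AKP in full medium, 0.581% to 0.622% in TGF-beta medium, 0.419% to 0.640% in APT in full medium and 0.577% to 0.753% without EGF. MTO101 in full medium, pool 1, had the lowest share. Extracted RNA was lowest in APT without EGF, at 13.2 to 354 ng/µl, and the mitochondrial share of reads was 3.16% ± 0.64 there (SD, n = 4) against 1.90% ± 0.15 in APT in full medium, 2.21% ± 0.22 in AKP in TGF-beta medium and 1.57% ± 0.13 in AKP in full medium. All 7 epithelial markers were present in every group, with summed levels of 95294 to 227745 normalised reads. Values of libraries of 1 line and medium are given in the order pool 1, pool 2. In these bulk samples fewer cells of a type and less RNA per cell cannot be told apart.

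The promoters are shown first because 9 of the 25 genes with a promoter window hold an element known from this stress response. The list was made by name and function, as genes of this response. Finding the element among them is therefore not independent of the choice of members. As background, the ER stress response element is a CCAAT box, bound by the factor NF-Y, followed after a gap of fixed length by CCACG, where ATF6 and XBP1 bind. RefSeq promoter windows (GRCm38.p6, the build of mm10), 250 bases before to 50 after the annotated start, were found for 25 of the 32 genes; Atf6, Derl1, Hspa13, Hyou1, Manf, Sec61a1 and Ssr2 had none. The letters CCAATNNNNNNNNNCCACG, or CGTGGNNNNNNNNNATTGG on the other strand, were in 39 of 32851 windows of all genes (0.119%). Counted by gene, they were in windows of 37 of all 27025 genes and of 9 of the 25 listed genes (36.0%). Among the other ER genes listed below, 1 gene held them, Ero1b. The 10 sites with 15 bases on each side, read 5′ to 3′ on the strand of the gene with the 2 boxes in capitals, were:
Hspa5 (chr2:34772010-34772058, plus strand): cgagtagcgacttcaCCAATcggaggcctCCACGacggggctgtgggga
Calr (chr8:84847060-84847108, minus strand): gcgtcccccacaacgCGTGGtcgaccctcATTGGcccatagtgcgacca
Derl3 (chr10:75893227-75893275, plus strand): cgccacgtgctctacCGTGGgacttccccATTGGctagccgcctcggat
Hsp90b1 (chr10:86705623-86705671, minus strand): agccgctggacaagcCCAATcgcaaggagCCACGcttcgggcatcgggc
Hsp90b1 (chr10:86705518-86705566, minus strand): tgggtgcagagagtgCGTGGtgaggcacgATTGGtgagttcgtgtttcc
Canx (chr11:50325785-50325833, minus strand): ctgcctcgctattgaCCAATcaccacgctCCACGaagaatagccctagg
Pdia6 (chr12:17266476-17266524, plus strand): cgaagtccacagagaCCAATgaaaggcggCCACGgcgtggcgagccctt
Dnajc3 (chr14:118937812-118937860, plus strand): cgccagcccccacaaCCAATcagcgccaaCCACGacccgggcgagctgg
Creld2 (chr15:88819505-88819553, plus strand): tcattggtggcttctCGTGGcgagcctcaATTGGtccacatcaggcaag
Syvn1 (chr19:6046517-6046565, plus strand): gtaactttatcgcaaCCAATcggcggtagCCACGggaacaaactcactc
The first base of the element lay 44 (Syvn1) to 212 bases (the first site of Hsp90b1) before the start. The boxes alone are common: CCAAT, on either strand, was in 37.4% of all windows and in those of 21 of the 25 genes. CCACG was in 32.8% of all windows and also in those of 21 of the 25 genes.

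A second arrangement, ATTGGNCCACG on either strand, was in 12 windows of all genes (0.0365%) and in those of Herpud1, Dnajb11 and, among the other ER genes, Krtcap2; the site of Herpud1, shown because that gene moved most among the degradation genes in TGF-beta medium, began 52 bases before the start.
Herpud1 (chr8:94386362-94386402, plus strand): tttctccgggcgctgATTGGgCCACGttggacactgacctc
The core of the XBP1 site, TGACGTGG on either strand, was in 222 windows (0.676%), in 0 of the 25 and in those of 8 of the other ER genes listed below. The 150 bases before the starts of Dnajb9 and Sdf2l1 are shown because these genes moved most in opposite directions, a choice made after their values were seen; CCAAT and CCACG boxes on either strand are in capitals.
Dnajb9 (chr12:44210069-44210218, minus strand): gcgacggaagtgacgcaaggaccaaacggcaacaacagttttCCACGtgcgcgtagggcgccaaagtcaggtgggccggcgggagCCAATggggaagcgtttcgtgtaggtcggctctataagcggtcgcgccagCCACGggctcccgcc
Sdf2l1 (chr16:17132384-17132533, minus strand): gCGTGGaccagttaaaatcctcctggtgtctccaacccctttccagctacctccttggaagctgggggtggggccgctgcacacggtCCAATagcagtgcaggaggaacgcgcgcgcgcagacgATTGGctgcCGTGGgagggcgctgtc
Both windows held CCAAT and CCACG boxes without the spacing of the element. A match of letters describes the window and does not show that a factor binds there.

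Levels in full medium are compared between genes per kilobase of exon (GENCODE M21), over the 8 full-medium libraries. Calreticulin (Calr), a lectin chaperone, stood highest at 5867 normalised reads per kilobase, followed by GRP94 (Hsp90b1) at 4345, the disulfide isomerases P4hb at 4334 and Pdia3 at 4257, the translocon genes Ssr2 at 3632 and Sec61b at 3451, and BiP (Hspa5) at 3272. The sensors and their helper Dnajb9 were near the low end, with Atf6 at 139, Eif2ak3 at 92.8, Dnajb9 at 90.6 and Ern1 at 54.4. Derl3 was lowest at 11.8 per kilobase and had 3.23 to 23.0 normalised reads per library, so its changes are read with wide error. The libraries carry no strand, and exons of 9 of the genes overlap annotated exons on the other strand, by 14 bases (Dnajb9 with a miRNA gene) to 549 bases (Sec61a1 with Gm44170); for Eif2ak3 the overlap with Gm43292 is 485 bases of 4841. Reads from such stretches cannot be told apart.

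**Figure D1:**
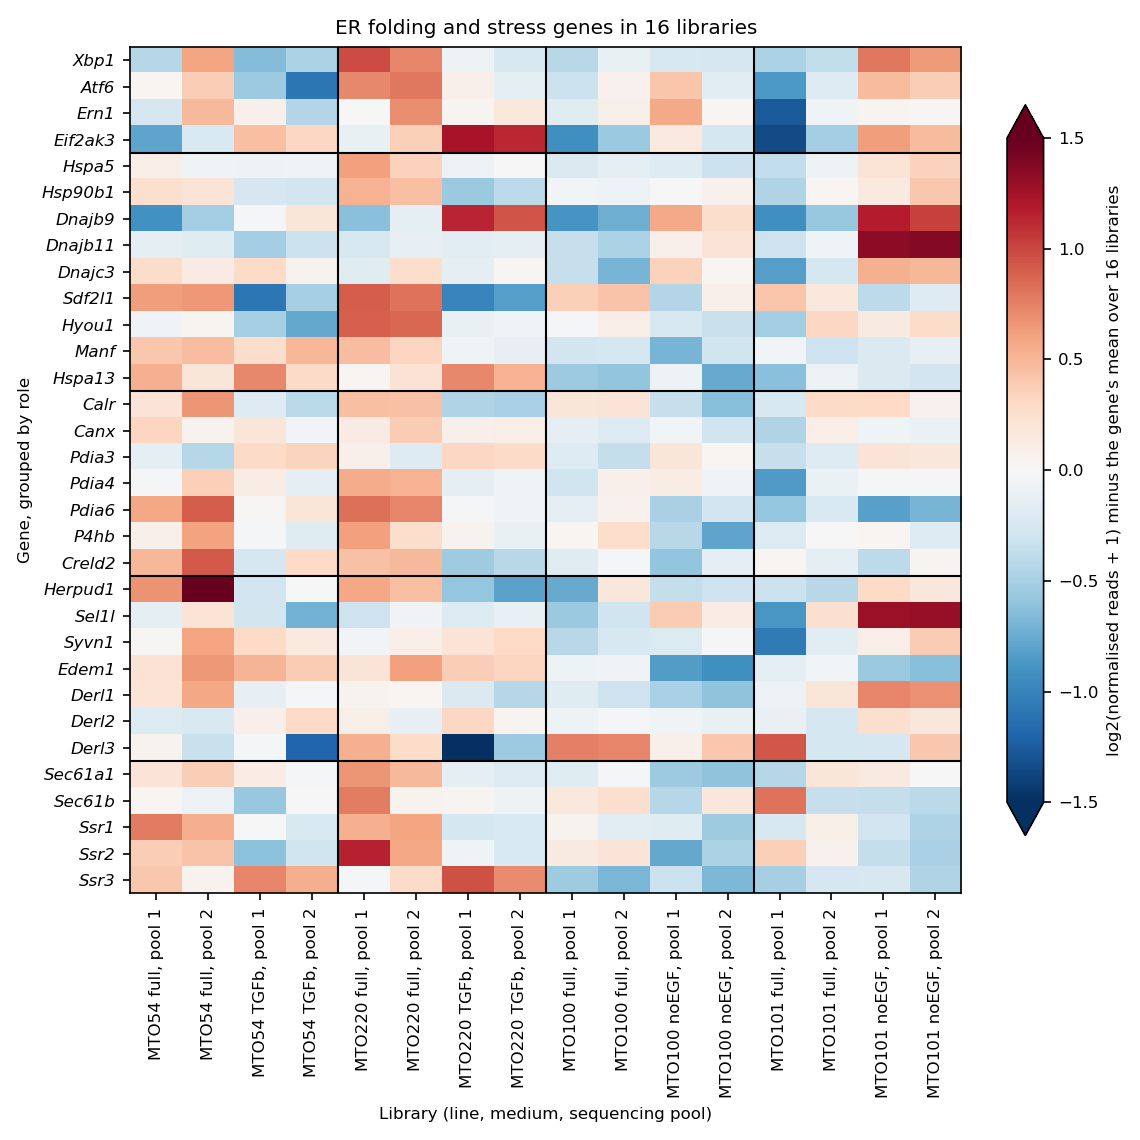
Each row is 1 of the 32 genes, grouped by role, and each column 1 of the 16 libraries; colour gives log2(normalised reads + 1) minus the gene's mean over the 16 libraries. Within AKP, Sdf2l1 and Herpud1 are lower in each TGF-beta library than in any full-medium library, and within each genotype Dnajb9 is higher in each altered-medium library than in any full-medium one.

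The first comparison asks how TGF-beta medium, against full medium, changed these genes in the AKP lines, whose Tgfbr2 is labelled wild type. Most genes that moved fell: 15 of the 32 were lower and 4 were higher at an adjusted p under 0.05 (limma-trend, Benjamini-Hochberg over 13725 genes, called here). The largest falls were in Sdf2l1, a stabiliser of BiP complexes, Herpud1, which assembles the degradation machinery, and Ssr2 of the translocon. The 4 that rose were Dnajb9 and Eif2ak3, at 2.16-fold and 1.96-fold their level in full medium, and Ssr3 and Pdia3, by less. Of all genes tested 52.6% were called (27.0% higher, 25.7% lower). The called share of the list (59.4%) is near this background and the share that fell (15 of 32) above it. The list was chosen with earlier results of these data known, so its share that fell is not independent of them. The median log2 change was -0.38 over the 32 genes and 0.02 over all genes, and 25 of the 32 lay below 0. In 15 genes the 4 TGF-beta libraries did not overlap the 4 full-medium libraries (3 higher, 12 lower), against 20.0% of all genes not overlapping and higher and 18.3% not overlapping and lower.

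Among the sensors and their transcription factor, Xbp1 and Atf6 fell and Eif2ak3 rose. MTO54 held 1418 and 2873 normalised reads of Xbp1 in full medium and 1209 and 1367 in TGF-beta medium, and MTO220 held 3752 and 3166 against 1802 and 1610.4. Its mean went from 2802 ± 993 to 1497 ± 262 (SD, n = 4; Entrez gene 22433, chromosome 11, 5520641 to 5525993 on GRCm38.p6, as for the positions that follow), a log2 change of -0.83 ± 0.21 (limma SE; adjusted p = 0.00761). The other 3 full-medium libraries of Xbp1 lay above every TGF-beta library, and MTO54 in full medium, pool 1, lay among them. For Atf6 (Entrez gene 226641, chromosome 1, 170704457 to 170868585), in full medium the normalised reads of Atf6 were 916 and 1162 in MTO54 and 1475 and 1549 in MTO220, and in TGF-beta medium they were 615 and 423 in MTO54 and 945 and 818 in MTO220. Each TGF-beta library was below its own line and pool in full medium, but MTO54 was lower than MTO220 in both media and the ranges overlapped; the log2 change was -0.90 ± 0.17 (adjusted p = 0.00139).

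Eif2ak3 encodes PERK (Entrez gene 13666, chromosome 6, 70844484 to 70905241). MTO54 held 349 and 516 normalised reads of Eif2ak3 in full medium and 827 and 751 in TGF-beta medium, and MTO220 held 561 and 777 against 1422 and 1324. Every TGF-beta library was above its matched library, with overlap only between MTO54 in TGF-beta medium, pool 2, and MTO220 in full medium, pool 2; the mean went from 551 ± 176 to 1081 ± 341, a log2 change of 0.97 ± 0.17 or 1.96-fold higher (adjusted p = 0.00113). Ern1, which encodes IRE1 (Entrez gene 78943, chromosome 11, 106397620 to 106487796), was not called. Ern1 was read at 364 and 608 in MTO54 and 435 and 702 in MTO220 in full medium, and at 456 and 318 in MTO54 and 445 and 482 normalised reads in MTO220 in TGF-beta medium. The groups overlapped, and the log2 change was -0.28 ± 0.22 (adjusted p = 0.312).

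**Figure D2:**
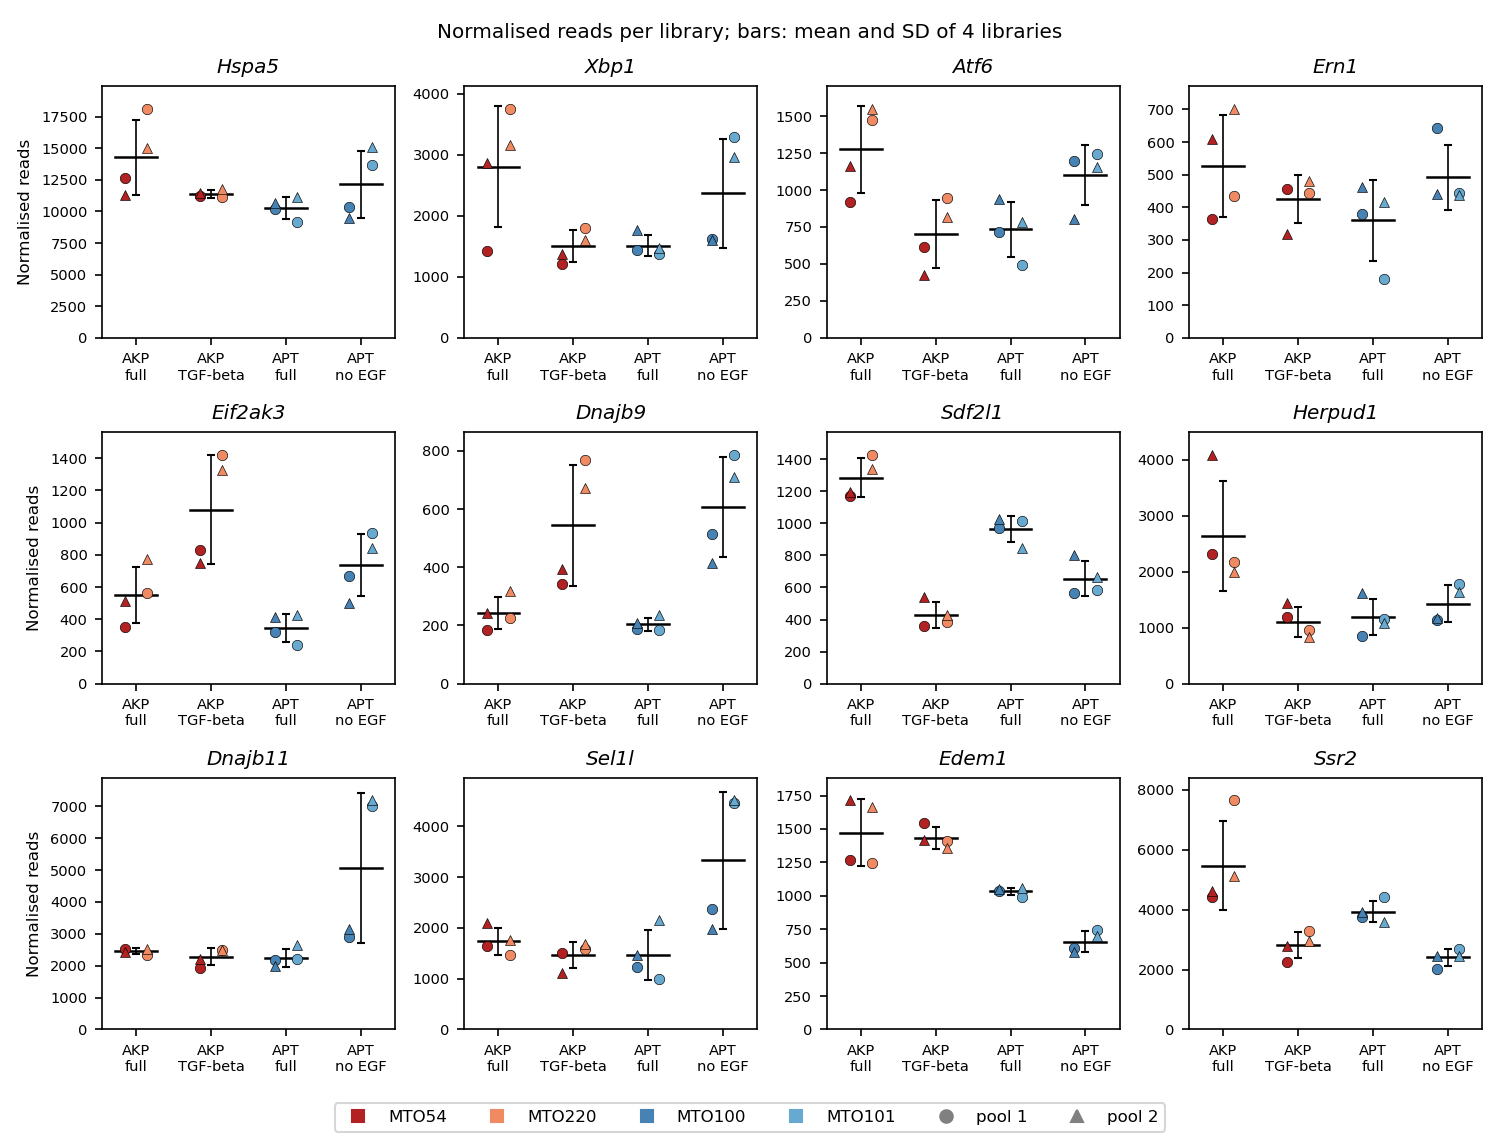
Normalised reads of 12 of the genes in every library, on linear axes from 0; colours are the 4 lines, circles pool 1 and triangles pool 2, and the bars are the mean and SD of 4 libraries. Sdf2l1, Herpud1 and Ssr2 are separated between the media in AKP, and Dnajb11 and Sel1l are highest in the 2 EGF-free libraries of MTO101.

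Among BiP and its helpers, 3 of 9 genes fell and 1 rose, against 25.7% and 27.0% of all genes tested. BiP itself (Hspa5, Entrez gene 14828, chromosome 2, 34772090 to 34776529), the main chaperone of the ER and the gene most used as a readout of the response, was not called. MTO54 held 12668 and 11288 normalised reads of Hspa5 in full medium and 11222 and 11442 in TGF-beta medium, and MTO220 held 18115 and 15026 against 11127 and 11789. The 4 TGF-beta libraries lay close together, MTO54 in full medium lay beside them and MTO220 in full medium lay above; the mean went from 14274 ± 2989.5 to 11395 ± 294 (log2 change -0.30 ± 0.15, adjusted p = 0.121). With MTO220 alone BiP was called (log2 change -0.53, adjusted p = 0.0420), and with MTO54 alone it was not (log2 change -0.08, adjusted p = 0.842).

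Sdf2l1 (Entrez gene 64136, chromosome 16, 17130138 to 17132383) had the largest change of the list. Sdf2l1 was read at 1174 and 1195 in MTO54 and 1429 and 1339 in MTO220 in full medium, and at 360.2 and 538 in MTO54 and 384 and 430.4 normalised reads in MTO220 in TGF-beta medium. The groups were far apart in both lines, with a mean of 1284 ± 121 to 428 ± 78.6 and a level 3.02-fold lower (log2 change -1.59 ± 0.17, adjusted p = 4.47e-05). Dnajb9 (Entrez gene 27362, chromosome 12, 44205897 to 44210068), a cochaperone of BiP that also restrains IRE1, moved the other way. MTO54 held 185 and 242 normalised reads of Dnajb9 in full medium and 343 and 394 in TGF-beta medium, and MTO220 held 225 and 317 against 769.7 and 672. All 4 TGF-beta libraries were above all 4 in full medium, and MTO220 was higher than MTO54 in TGF-beta medium; the mean went from 242 ± 55.4 to 545 ± 208 (log2 change 1.11 ± 0.20, 2.16-fold higher, adjusted p = 0.00123).

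Another 2 helpers fell without overlap between the groups. Hyou1, an exchange factor of BiP, had a log2 change of -0.80 ± 0.14 (adjusted p = 0.00087), and GRP94 (Hsp90b1), an ER chaperone of the HSP90 family, of -0.72 ± 0.15 (adjusted p = 0.00254). The BiP cochaperones Dnajb11 (-0.11) and Dnajc3 (-0.06), the secreted stress protein Manf (-0.27) and the HSP70 relative Hspa13 (0.32) were not called, with adjusted p of 0.126 to 0.758 for these log2 changes.

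In the calnexin cycle and among the disulfide isomerases 5 of 7 genes fell, 1 rose and Canx was not called. Of all genes tested 25.7% fell and 27.0% rose. MTO54 held 11979 and 16514 normalised reads of Calr in full medium and 9124 and 7928 in TGF-beta medium, and MTO220 held 14331 and 14171 against 7647 and 7502. Both lines and both pools of Calr were lower in TGF-beta medium, with no overlap, and the mean went from 14248 ± 1852 to 8050.0 ± 737 (log2 change -0.82 ± 0.15, adjusted p = 0.00134). Canx, the membrane-bound partner of calreticulin, had a log2 change of -0.14 ± 0.14 (adjusted p = 0.412). The isomerases Pdia6 (-0.73 ± 0.14) and P4hb (-0.46 ± 0.17) and the isomerase-like Creld2 (-0.81 ± 0.17) fell without overlap of the groups, and Pdia4 (-0.42 ± 0.15) fell with overlap.

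Pdia3 (ERp57), the isomerase that works with calnexin and calreticulin, rose. In full medium the normalised reads of Pdia3 were 12353 and 10161 in MTO54 and 14474 and 11997 in MTO220, and in TGF-beta medium they were 16776 and 17257 in MTO54 and 17052 and 16738 in MTO220. The 4 TGF-beta libraries lay within a narrow range above all full-medium libraries (mean 12246 ± 1769 to 16956 ± 245, log2 change 0.48 ± 0.15, adjusted p = 0.0188). The call of Pdia3 was lost in 4 of the 8 fits that left out 1 library (without either TGF-beta library of MTO54, without the pool 1 TGF-beta library or without the pool 2 full-medium library of MTO220), with adjusted p of 0.00971 to 0.0544 over the 8. The calls of P4hb and Pdia4 were each lost in 6 of them (0.0209 to 0.114 and 0.0143 to 0.144): that of P4hb held only without pool 1 of MTO54 or pool 2 of MTO220 in full medium, and that of Pdia4 only without either pool 1 library of MTO54. With the pool as a block they were also lost (adjusted p = 0.0567 for P4hb and 0.0616 for Pdia4).

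Of the 7 degradation genes 2 fell, Herpud1 and Derl1, against 25.7% of all genes tested. MTO54 held 2311 and 4089.9 normalised reads of Herpud1 in full medium and 1184 and 1444 in TGF-beta medium, and MTO220 held 2169 and 1986 against 966 and 828. The groups of Herpud1 (Entrez gene 64209, chromosome 8, 94386429 to 94395371) did not overlap, and MTO54 in full medium, pool 2, stood well above the other full-medium libraries; the mean went from 2639 ± 976 to 1105 ± 269, a level 2.33-fold lower (log2 change -1.22 ± 0.18, adjusted p = 0.000392). Derl1, a channel protein of retrotranslocation, had a log2 change of -0.41 ± 0.14 (adjusted p = 0.0321). Its call held in 1 of the 8 fits that left out a library, that without the pool 1 full-medium library of MTO54 (adjusted p 0.0243 to 0.110 over the 8), and was lost with the pool as a block (adjusted p = 0.0512).

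The core of the ubiquitin ligase complex was not called. Sel1l, its scaffold, had a log2 change of -0.25 ± 0.17 (adjusted p = 0.252), the ligase Syvn1 (HRD1) of 0.07 ± 0.16 (adjusted p = 0.727), and the mannosidase-like Edem1 of -0.02 ± 0.15 (adjusted p = 0.901). Derl2 (0.30 ± 0.14, adjusted p = 0.0970) and the low Derl3 (-0.96 ± 0.44, adjusted p = 0.0904) were not called either.

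In the translocon, through which new chains enter the ER, 3 of 5 genes fell and 1 rose. The shares of all genes tested were 25.7% and 27.0%. Ssr2 was read at 4432 and 4622 in MTO54 and 7644 and 5136 in MTO220 in full medium, and at 2241 and 2783 in MTO54 and 3286 and 2937 normalised reads in MTO220 in TGF-beta medium. The groups of Ssr2, a subunit of the translocon-associated TRAP complex, did not overlap, and the mean went from 5459 ± 1487 to 2811 ± 435 (log2 change -0.93 ± 0.16, adjusted p = 0.000842). Its partner Ssr1 fell by a similar log2 change (-0.79 ± 0.13, adjusted p = 0.000617), and the channel subunit Sec61a1 had -0.49 ± 0.15 (adjusted p = 0.0203). Sec61b was not called (-0.34 ± 0.19, adjusted p = 0.151).

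Ssr3, another TRAP subunit, rose. MTO54 held 6816 and 5334 normalised reads of Ssr3 in full medium and 8532 and 7494 in TGF-beta medium, and MTO220 held 5043 and 6308 against 10002 and 8444. Its groups did not overlap (mean 5875 ± 828 to 8618 ± 1035, log2 change 0.56 ± 0.16, adjusted p = 0.0132). Its call was lost only without the pool 1 TGF-beta library of MTO220 (adjusted p = 0.0604), and that of Sec61a1 without any 1 of the 4 MTO220 libraries (adjusted p 0.0161 to 0.0825 over the 8 fits).

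Markers of secretory cells moved with this comparison. The summed level of 7 goblet markers was 329 to 13862 normalised reads in AKP in full medium and 72.7 to 179.6 in TGF-beta medium. That of 7 Paneth markers was 994 to 19835 and 191 to 327. Of the 7 genes in each list 4 were tested and all 4 fell, against 25.7% of all genes tested. Clca1, Tff3, Zg16 and Spink4 were under 10 in all TGF-beta libraries. A tested goblet gene therefore passed the filter through full medium alone, and its fall was fixed by the filter. Fcgbp of the goblet list was lower in both lines, at 236 and 414 in MTO54 in full medium and 65.9 and 79.5 in TGF-beta medium, and in MTO220 at 3161 and 3784 against 98.0 and 127. In full medium MTO220 held far more of these markers than MTO54. Summed levels of 6 fibroblast markers were 10.3 to 18.9 in full medium and 108 to 201 in TGF-beta medium, there mostly Pdgfra, with Lum at 0 in all 16 libraries. Summed endothelial markers were 24.1 to 1251 and 27.6 to 47.7, with Kdr and Emcn under 10 in all AKP libraries. Immune markers were 0 to 37.7 over all 16 libraries. Summed absorptive markers were 33.9 to 94.1 in full medium and 50.0 to 221 in TGF-beta medium. The part of these cell types in the result was not tested. With scaling to library totals the all-gene median log2 change was 0.14 in place of 0.02, and 11 members were called lower and 5 higher.

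The second comparison asks how EGF withdrawal, against full medium, changed the genes in the APT lines. Here 7 of the 32 rose and 3 fell, 31.3% of the list against 48.5% of 14373 genes tested (26.8% higher, 21.7% lower). The genes that rose were Dnajb9, Sel1l, Eif2ak3, Dnajb11, Dnajc3, Atf6 and Xbp1. They are 3 of the 4 genes of the sensors and their factor, 3 BiP cochaperones and the degradation scaffold. Ssr2, Edem1 and Sdf2l1 fell, and no gene of the calnexin cycle or the isomerases was called over both lines. The median log2 change was 0.15 over the 32 genes and 0.08 over all genes. In 8 genes the groups did not overlap (5 higher, 3 lower), against 19.0% of all genes higher and 16.9% lower. Scaled to library totals, 71.1% of called genes were higher, against 55.2% here, the median of all genes was 0.31, and 11 of the 32 were higher and 2 lower.

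**Figure D3:**
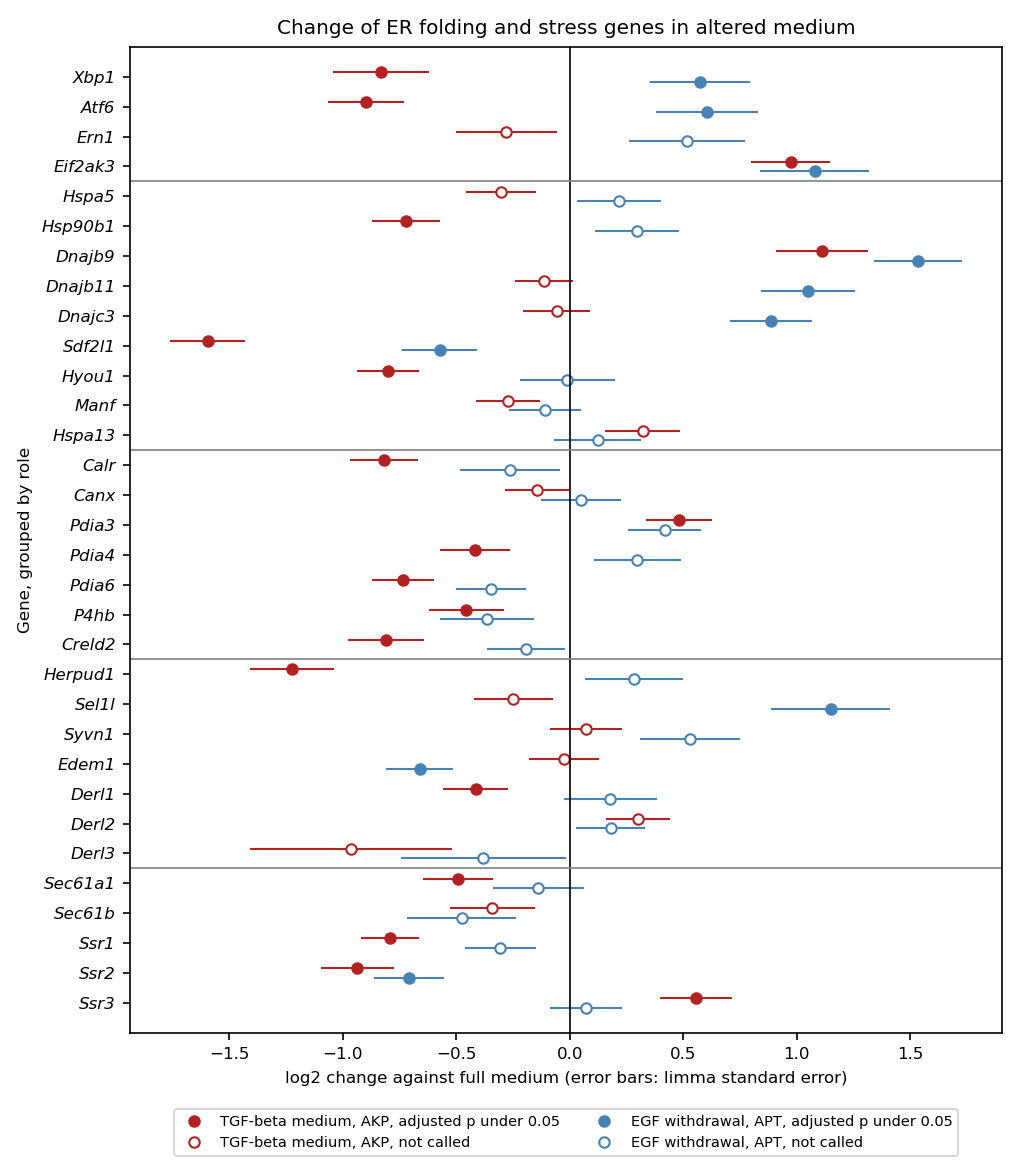
Points are log2 changes against full medium in AKP (red, TGF-beta medium) and APT (blue, EGF withdrawal) with limma standard errors. Filled points have an adjusted p under 0.05. The lines separate, from the top, sensors and their factor, BiP helpers, calnexin cycle and isomerases, degradation genes and translocon. Xbp1 and Atf6 lie on opposite sides of 0, Dnajb9 and Eif2ak3 to the right in both.

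Among the sensors the clearest change was in Eif2ak3. In full medium the normalised reads of Eif2ak3 were 319 and 411 in MTO100 and 237 and 424 in MTO101, and in EGF-free medium they were 669 and 503 in MTO100 and 933 and 841 in MTO101. All 4 EGF-free libraries were above all 4 in full medium, the highest being those of MTO101; the mean went from 348 ± 87.2 to 737 ± 190.5 (log2 change 1.08 ± 0.24, 2.11-fold higher, adjusted p = 0.00370). MTO100 held 716 and 941 normalised reads of Atf6 in full medium and 1199 and 805 in EGF-free medium, and MTO101 held 492 and 785 against 1245 and 1156. The pool 2 pair of MTO100 was not higher without EGF, the other 3 pairs were, and the groups overlapped (log2 change 0.60 ± 0.22, adjusted p = 0.0436).

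The values of Xbp1 differed between the lines. MTO100 held 1432 and 1768 normalised reads of Xbp1 in full medium and 1618 and 1595 in EGF-free medium, and MTO101 held 1366 and 1477 against 3286 and 2967. Both EGF-free libraries of MTO101 were far above all others, and MTO100 stood within its full-medium range, with log2 changes of 1.14 in MTO101 and 0.01 in MTO100; the fit over both lines gave 0.57 ± 0.22 (adjusted p = 0.0490). The calls of Xbp1 and Atf6 were near the threshold. They were lost with the pool as a block (adjusted p = 0.0668 and 0.0592) and with edgeR (0.0702 and 0.0623), that of Xbp1 also with DESeq2 (0.0598), and each was lost in 5 of the 8 fits that left out 1 library (0.0162 to 0.165 and 0.0148 to 0.131). For both genes those were the fits without MTO100 in full medium, pool 1, without MTO101 in full medium, pool 1, and without either EGF-free library of MTO101, to which MTO101 in full medium, pool 2, added for Xbp1 and MTO100 without EGF, pool 1, for Atf6. Ern1 was not called. Ern1 was read at 381 and 461 in MTO100 and 179.7 and 417 in MTO101 in full medium, and at 642 and 440.5 in MTO100 and 444 and 439 normalised reads in MTO101 in EGF-free medium. The groups overlapped, MTO101 in full medium, pool 1, was lowest (log2 change 0.52 ± 0.26, adjusted p = 0.115), and without the pool 2 full-medium library of MTO101 Ern1 was called (adjusted p = 0.0307).

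BiP was not called without EGF. MTO100 held 10168 and 10699 normalised reads of Hspa5 in full medium and 10359 and 9475 in EGF-free medium, and MTO101 held 9131 and 11179 against 13683 and 15067. MTO101 was higher without EGF and MTO100 was not, and the groups overlapped (mean 10294 ± 879 to 12146 ± 2659.8, log2 change 0.22 ± 0.18, adjusted p = 0.351). Its cochaperones of the DnaJ family, Dnajb9, Dnajb11 and Dnajc3, rose with no overlap of the groups. MTO100 held 188 and 209 normalised reads of Dnajb9 in full medium and 515 and 416 in EGF-free medium, and MTO101 held 183 and 235 against 787 and 711. Dnajb9 had the largest rise of the list, 2.90-fold higher (log2 change 1.53 ± 0.20, adjusted p = 0.000133), in both lines.

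Dnajb11 (ERdj3) and Dnajc3 (p58IPK) followed. MTO100 held 2165 and 1979.9 normalised reads of Dnajb11 in full medium and 2910.2 and 3147 in EGF-free medium, and MTO101 held 2213 and 2643 against 6999.7 and 7181. MTO101 without EGF stood far above the rest, and MTO100 without EGF just above all full-medium libraries; the mean went from 2250.2 ± 280.4 to 5059.5 ± 2348 (log2 change 1.05 ± 0.21, adjusted p = 0.00189). Dnajc3 was read at 1008 and 793 in MTO100 and 725 and 1074 in MTO101 in full medium, and at 1631 and 1318 in MTO100 and 1868 and 1817 normalised reads in MTO101 in EGF-free medium. Both lines were higher without EGF, by similar amounts (mean 900.0 ± 168 to 1658 ± 249, log2 change 0.89 ± 0.18, adjusted p = 0.00223).

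Sdf2l1 fell, as in AKP. MTO100 held 974 and 1026 normalised reads of Sdf2l1 in full medium and 564 and 804 in EGF-free medium, and MTO101 held 1016 and 848 against 582 and 665. The groups did not overlap, with MTO100 without EGF, pool 2, just below the lowest full-medium library (log2 change -0.57 ± 0.17, adjusted p = 0.0146). The call was lost without the pool 1 EGF-free library of MTO101 (adjusted p = 0.0558) and with scaling to library totals. GRP94 (0.30 ± 0.18), Hyou1 (-0.01 ± 0.21), Manf (-0.11 ± 0.16) and Hspa13 (0.12 ± 0.19) had log2 changes that were not called.

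In the degradation group Sel1l rose and Edem1 fell. MTO100 held 1239 and 1474 normalised reads of Sel1l in full medium and 2381 and 1973 in EGF-free medium, and MTO101 held 992 and 2156 against 4469 and 4511. MTO101 without EGF was far above all other libraries, and MTO100 without EGF overlapped MTO101 in full medium, pool 2 (mean 1465 ± 501 to 3333 ± 1346, log2 change 1.15 ± 0.26, 2.22-fold higher, adjusted p = 0.00407). Edem1 was read at 1033 and 1050.2 in MTO100 and 991 and 1056 in MTO101 in full medium, and at 606 and 577 in MTO100 and 742 and 698 normalised reads in MTO101 in EGF-free medium. All 4 EGF-free libraries of Edem1, which helps extract misfolded glycoproteins, were below all 4 in full medium, which lay close together (mean 1032 ± 29.5 to 656 ± 77.2, log2 change -0.66 ± 0.15, adjusted p = 0.00381).

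Herpud1 (0.28 ± 0.22), Syvn1 (0.53 ± 0.22) and Derl1 to Derl3 (0.18, 0.18 and -0.38) were not called without EGF. Syvn1 had an adjusted p of 0.0656, of 0.0477 with the pool as a block and of 0.0407 without the pool 2 full-medium library of MTO101. Among the fits that left out 1 library, Herpud1 was called only without MTO100 in full medium, pool 2 (log2 change 0.53, adjusted p = 0.0179). Derl1 had unlike values in the lines, with a log2 change of -0.30 in MTO100 and 0.66 in MTO101.

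In the translocon only Ssr2 was called. MTO100 held 3768 and 3935 normalised reads of Ssr2 in full medium and 2019.8 and 2467 in EGF-free medium, and MTO101 held 4409 and 3591 against 2689 and 2458. The groups did not overlap and the fall was of like size in both lines (mean 3926 ± 351 to 2408 ± 280.2, log2 change -0.71 ± 0.15, adjusted p = 0.00319). The changes of Ssr1 (-0.31 ± 0.16), Ssr3 (0.07 ± 0.16), Sec61a1 (-0.14 ± 0.20) and Sec61b (-0.48 ± 0.24) were not called; Sec61b was called without the pool 2 full-medium library of MTO101 (adjusted p = 0.0280). Among the 7 calnexin and isomerase genes Pdia3 came nearest (0.42 ± 0.16, adjusted p = 0.0514, and 0.0488 with the pool as a block); the EGF-free libraries of Pdia3, at 13998 to 15626, lay above the full-medium ones, at 10654 to 11985. Within MTO100 alone Calr (log2 change -0.69, adjusted p = 0.0247) and P4hb (-0.75, adjusted p = 0.0160) were called lower, and within MTO101 alone they were not (adjusted p = 0.706 and 0.960). Pdia3 and Pdia6 were called without the pool 1 full-medium library of MTO101 (adjusted p = 0.0483 and 0.0407).

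Markers of secretory cells moved with this comparison too. Summed Paneth markers were 2712 to 3812 normalised reads in APT in full medium and 9832 to 15918 without EGF (6 of 6 tested higher), enteroendocrine markers 104 to 244 and 1320 to 2130 (4 of 4 tested higher), and goblet markers 273 to 5060 and 5999 to 12905 (2 of 6 tested higher, Muc2 and Fcgbp). Most of the goblet sum was Fcgbp, at 5911 to 10919 normalised reads without EGF. Of all genes tested 26.8% were higher without EGF. Tested markers are those that passed the filter, which a gene can do through the EGF-free libraries alone. Summed fibroblast markers were 13.8 to 156.5 and 95.4 to 513, mostly Pdgfra in MTO101. The part of these cell types in the result was not tested.

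The responses were also set against each other in all 16 libraries, with no library shared between them. TGF-beta medium was given only to AKP and EGF-free medium only to APT. Medium and genotype therefore cannot be told apart in these differences. Libraries and not lines are the units of this fit, which has no term for a response that differs between lines of a genotype. The TGF-beta response of AKP lay below the EGF-withdrawal response of APT for 10 genes and above it for Edem1 (34.4% of the list, against 22.2% of 15087 genes, 10.5% higher and 11.7% lower). The largest differences were in Herpud1 (-1.50 ± 0.30 on the log2 scale, adjusted p = 0.00187), Atf6 (-1.50 ± 0.29, adjusted p = 0.00163), Xbp1 (-1.41 ± 0.33, adjusted p = 0.00562), Sel1l (-1.40 ± 0.34, adjusted p = 0.00760) and Dnajb11 (-1.16 ± 0.25, adjusted p = 0.00299). Sdf2l1, GRP94, Dnajc3, Hyou1 and Pdia4 were the others below. Edem1 stood at 0.64 ± 0.19 (adjusted p = 0.0272). Xbp1 and Atf6 were the 2 genes called lower in AKP and higher in APT, and their APT calls are the ones near the threshold above. Dnajb9 and Eif2ak3, called higher in both media, differed between the responses by -0.42 ± 0.28 and -0.11 ± 0.31, neither called (adjusted p = 0.308 and 0.845). Sdf2l1 and Ssr2 were called lower in both, with Sdf2l1 falling further in AKP. Of the 11 calls, 8 were kept with any 1 of the 16 libraries left out: that of Pdia4 was lost in 11 fits (adjusted p 0.0254 to 0.110), that of Hyou1 in 7 (0.0230 to 0.0881) and that of Edem1 in 7 (0.0145 to 0.0601). Pdia4 held only without a pool 1 library of MTO54, MTO101 in full medium, pool 2, or a pool 2 library of MTO100. Hyou1 was lost without any library of MTO220, either EGF-free library of MTO101 or MTO54 in TGF-beta medium, pool 2, and Edem1 without any pool 1 library of AKP, either full-medium library of MTO100 or its pool 2 EGF-free library.

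Read against the promoters above, the 9 genes with the stress element were 4 lower (Calr, Creld2, Hsp90b1 and Pdia6), 0 higher and 5 not called in TGF-beta medium, and 1 higher (Dnajc3) and 8 not called without EGF. Their median log2 changes were -0.72 and 0.05. The 16 genes with a window but no element were 6 lower and 4 higher in TGF-beta medium, and 2 lower and 5 higher without EGF, with medians of -0.26 and 0.29. The 7 genes with no window were 5 lower and 0 higher in TGF-beta medium, with a median of -0.49. Without EGF they were 1 lower and 1 higher, with a median of -0.01. Of all genes tested 25.7% were lower and 27.0% higher in TGF-beta medium, and 21.7% and 26.8% without EGF. No test was made of these counts.

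Line by line, the TGF-beta response of the 32 genes did not differ detectably between MTO220 and MTO54. None was called for the interaction of line and medium by limma, edgeR or DESeq2, while 8.20% of all genes were called by limma; at an unadjusted p under 0.05 there were 0 of the 32 and 3203 of 13725 genes. The largest estimates were 0.63 ± 0.34 for Dnajb9 and 0.55 ± 0.30 for Sel1l on the log2 scale (MTO220 minus MTO54), leaving aside the low Derl3. Within MTO54 alone 7 of the 32 genes were called, against 3782 of 13690 genes tested. Within MTO220 alone 20 of the 32 were called, against 8942 of 14433, so all genes showed a like contrast. The lines have 2 libraries per medium.

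In APT the response to EGF withdrawal leaned towards MTO101. In 27 of the 32 genes the change was higher there than in MTO100, with a median difference of 0.37 on the log2 scale against -0.04 over all genes. Within MTO100 alone 3 of the 32 were called higher and 4 lower, against 3042 and 2209 of 14574 genes tested. Within MTO101 alone 8 were called higher and 0 lower, against 3095 and 2374 of 14530. None of the 32 was called for the interaction by limma or by edgeR, while 2.34% of all genes were called. At an unadjusted p under 0.05 there were 5 of the 32 and 2161 of 14373 genes, a like share. Xbp1 came nearest (1.12 ± 0.29, adjusted p = 0.0738) and was called by DESeq2 (adjusted p = 0.023); Dnajb11 (1.00 ± 0.29, adjusted p = 0.109) and Derl1 (0.97 ± 0.29, adjusted p = 0.126) followed. Without the pool 2 full-medium library of MTO101, 5 genes were called: Xbp1, Sel1l, Derl1, Dnajb11 and Hyou1. That leaves MTO101 in full medium with its pool 1 library, which had the lowest share of reads on these genes.

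**Figure D4:**
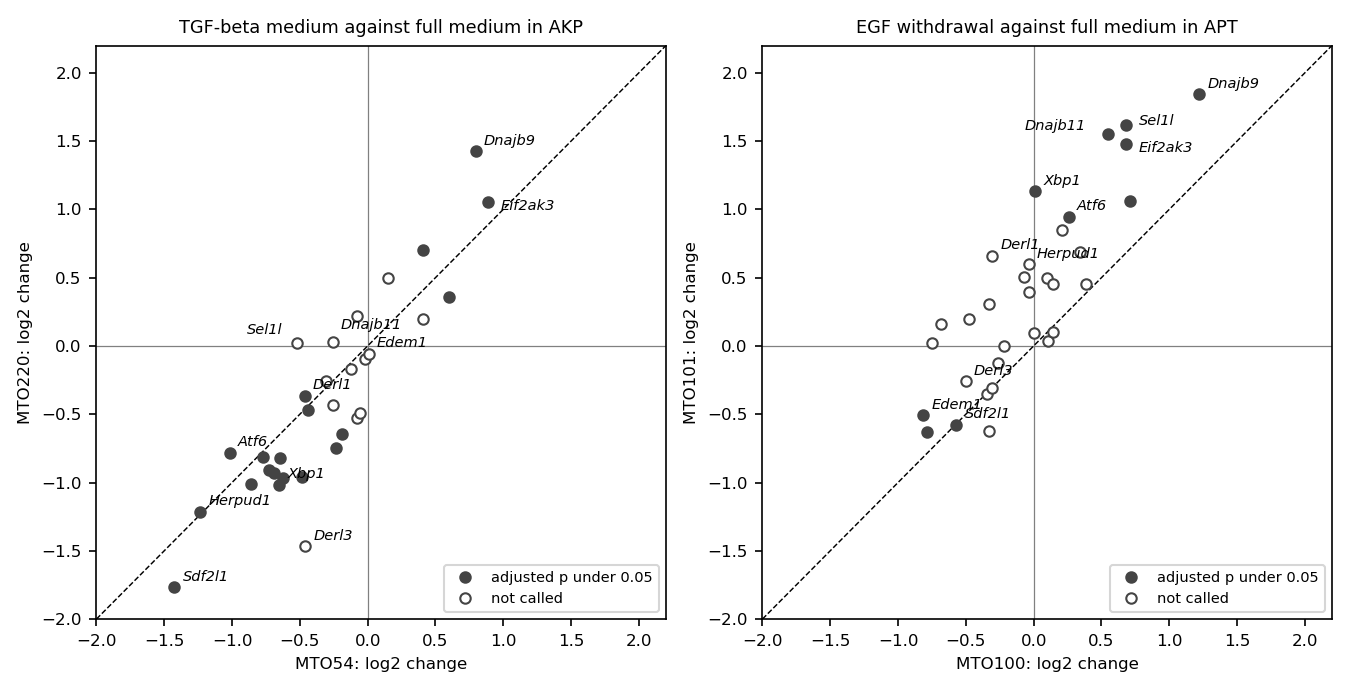
Each point is a gene, with its log2 change in 1 line on each axis (AKP left, APT right; dashed line, equal change; filled points, adjusted p under 0.05 over both lines). In AKP 21 of the 32 lie below the line of equal change, and in APT 27 of 32 lie above it, towards MTO101.

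The genotypes were compared in full medium over the 4 line means, 2 against 2. In AKP 30 of the 32 genes were higher than in APT, with a median difference of 0.50 on the log2 scale against -0.00 over all genes. None was called, nor was any of the 13898 genes by limma or edgeR (0%); at an unadjusted p under 0.05 there were 16 of the 32 and 1437 of the 13898. Herpud1 had the largest estimate (1.13 ± 0.26, adjusted p = 0.327), followed by Pdia6 (0.98 ± 0.19) and Xbp1 (0.85 ± 0.28). Within a genotype, Hyou1 was higher in MTO220 than in MTO54 in full medium, at 7514 and 7377 normalised reads against 3896 and 4179 (log2 difference MTO220 minus MTO54 0.88 ± 0.17, adjusted p = 0.00462). The other 31 were not called, while 17.8% of all genes were (8.67% higher and 9.17% lower in MTO220). Without MTO54 in full medium, pool 2, Xbp1 and Eif2ak3 were called too, both higher in MTO220. Without MTO54 in full medium, pool 1, Herpud1 was called in the other direction, lower in MTO220. Between MTO101 and MTO100 none of the 32 was called by limma, edgeR or DESeq2, while 14.1% of all genes were called by limma; at an unadjusted p under 0.05 there were 0 of the 32 and 3515 of 14373 genes. Without the pool 2 full-medium library of MTO101, Pdia4 and Ern1 were called.

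Between passages and pools in full medium 2 genes were called, both sensors and both higher in the later passage and pool 2. Ern1 had a log2 difference of 0.73 ± 0.17 (adjusted p = 0.0281) and Eif2ak3 of 0.56 ± 0.15 (adjusted p = 0.0372), with each of the 4 lines higher in pool 2, while 10.8% of all genes were called (5.30% higher and 5.54% lower in pool 2). The call of Eif2ak3 was lost with any library left out (adjusted p 0.0629 to 0.127) and that of Ern1 without any library of MTO220 or MTO101 (0.0232 to 0.0878). Scaled to library totals, 78.2% of called genes were higher in pool 2, against 48.9% here, and both sensors were still called. The direction did not carry over to the altered media. There Eif2ak3 was lower in pool 2 in each of the 4 lines, for example 827 and 751 in MTO54 and 669 and 503 in MTO100. Ern1 was lower in pool 2 there in MTO54, MTO100 and MTO101 and higher in MTO220.

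Other genes of these pathways, in lists that share no gene with the 32, went in mixed directions. Of 20 tested other sensors, factors and outputs of the stress response, 10 fell and 5 rose in TGF-beta medium. Of all genes tested 25.7% fell and 27.0% rose there. Ern2, the IRE1 of mucous cells, went from 865 ± 153 to 55.2 ± 21.8 normalised reads (log2 change -4.02, adjusted p = 4.2e-06). Trib3, Chac1, Sesn2 and Atf4, genes of the branch below PERK and related kinases, fell, with log2 changes of -3.28, -3.77, -2.16 and -1.28; Atf4, its transcription factor, went from 7195 ± 819 to 2956 ± 329 (adjusted p = 7.31e-05). Creb3l1, an ATF6-like factor of secretory cells, fell too (-4.08). Ddit3 (CHOP) was not called (-0.45, adjusted p = 0.316), and Ppp1r15a (GADD34), which reverses the PERK signal, rose (0.64, adjusted p = 0.0327).

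Without EGF 3 of 21 tested genes of that list rose and 2 fell, against 26.8% and 21.7% of all genes tested. Creb3l1 fell (-1.95, adjusted p = 0.00028) and its relative Creb3l2 rose (1.19, adjusted p = 0.00204). Trib3 fell from 319 ± 211 to 56.2 ± 13.5 (-2.16, adjusted p = 0.00430). Atf4 (0.04, adjusted p = 0.900), Ddit3 (0.78, adjusted p = 0.0672), Ppp1r15a (0.21, adjusted p = 0.502) and Ern2 (-0.35, adjusted p = 0.431) were not called.

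For the counts that follow, the shares of all genes tested were 25.7% lower and 27.0% higher in TGF-beta medium. Without EGF they were 21.7% lower and 26.8% higher. Of 28 tested other folding enzymes 12 fell and 8 rose in TGF-beta medium, and 2 fell and 7 rose without EGF. Agr2, an isomerase needed for mucin folding, fell in both, with log2 changes of -5.72 and -1.31 (adjusted p = 4.24e-05 and 0.0119); its 4 AKP libraries in full medium ran from 1159.8 to 8425 normalised reads. The prolyl isomerase Fkbp14 rose in both (2.39 and 1.44), and Fkbp11 fell without EGF (-2.56, adjusted p = 9.02e-05). Of 20 other degradation genes 4 rose and 1 fell in TGF-beta medium, and 7 rose and 2 fell without EGF; the lectin gene Erlec1, whose product hands glycoproteins to the SEL1L complex, rose in both (0.96 and 1.21, adjusted p = 0.000324 and 0.000273). Of 19 other translocon and signal peptidase genes 3 rose and 4 fell in TGF-beta medium, and 4 rose and 2 fell without EGF. Sec62, a partner of the channel, rose in both (0.91 and 0.71), and Ssr4, the remaining TRAP subunit, fell in TGF-beta medium (-0.97, adjusted p = 0.00216).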

How the data were processed

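Polyadenylated RNA of 16 organoid libraries was sequenced. Per the submitters' processing notes the authors used STAR 2.3.0e, the mm10 genome and DESeq2 1.22.1; the counter and gene annotation are not given in the sources used here. The deposited signal values are gene counts divided by size factors. All values (100%) were whole multiples, within 0.001, of what 1 read is worth in their library, so reads were recovered; the largest deviation was 5.77e-05. Of 27179 gene IDs 25275 (93.0%) were matched to a symbol.

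Genes at 10 or more normalised reads in at least 4 libraries of a fit (2 line means for the genotypes) were tested on log2(value + 1) with limma 3.58.1 in R 4.3.3 (limma-trend, robust empirical Bayes, a term for the line or for each line and medium), two-sided, with Benjamini-Hochberg adjustment over all genes; an adjusted p under 0.05 is called. Fold changes on this scale understate those of low genes. edgeR 4.0.16 and DESeq2 1.42.0 on the recovered reads, other pseudocounts, scaling to library totals, no filter, no line term, each line alone and each library left out were alternatives. The fits were tested on simulated data. Libraries of a line with the same pool number share a passage by the labels, which pairs them across media; the deviations of pool 2 from pool 1 correlated between the media of a line at 0.0385 (MTO54), 0.171 (MTO220), 0.174 (MTO100) and 0.127 (MTO101) over 15087 genes, and between lines at -0.344 to 0.526, and the pool was added as a block in an alternative. The depth of 17056053 to 22251986 reads limits only Derl3 among the 32 genes. The 32 genes, the other lists and the tests were chosen with earlier results of these data known. All 32 genes are accounted for; values in every library are given for the sensors, Xbp1, BiP and up to 6 called genes with the highest and lowest changes per medium, and of other lists up to 4 genes with the smallest p and a few set genes are named. One lesion of the AKP lines is not reported here.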

Additional observations from a re-analysis of the deposited data

Results flagged for a closer look

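The values of the 32 genes were checked in each of the 4 groups of genotype and medium, 128 sets of 4 libraries, for a library far from the other 3 (a gap to the nearest other above Dixon's critical share of the set's range). This marked 9 sets, and chance alone marks about 1 in 20. The library MTO54 in full medium, pool 2, was marked for Herpud1, at 4089.9 normalised reads against 1986 to 2311 in the other AKP libraries in full medium, and for Creld2, at 1819 against 1295 to 1354. MTO220 in full medium, pool 1, was marked for Sec61b, at 2778 against 1531 to 1692. In TGF-beta medium MTO54, pool 1, stood apart for Ssr1, at 2182 against 1797 to 1848.

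Among APT libraries in full medium, MTO101, pool 1, stood apart for Manf, at 3235 against 2694 to 2778, and MTO101, pool 2, for Hspa13, at 677 against 467 to 493. Without EGF, MTO100, pool 1, stood apart for Ern1, at 642 against 439 to 444. MTO100 without EGF, pool 2, was low for Pdia3, at 13998 against 15425 to 15626, and high for Sec61b, at 1832 against 1211 to 1269.8.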

How the results depend on the processing

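No called gene of the 32 changed direction under any alternative. In TGF-beta medium 7 of the 19 calls (Calr, Sdf2l1, Herpud1, Atf6, Eif2ak3, Ssr1 and Ssr2) were kept under every alternative and 13 with any 1 library left out; without EGF 3 of 10 (Dnajb9, Dnajc3 and Sel1l) and 7. MTO54 alone, with 2 libraries per medium, gave 7 calls. With 1 library left out, the members called ranged from 13 to 19 in TGF-beta medium, 7 to 12 without EGF, 0 to 0 for the line difference in the TGF-beta response, 0 to 5 for that in the EGF response, 8 to 12 for the difference of the responses, 0 to 0 between genotypes, 1 to 3 between the AKP lines, 0 to 2 between the APT lines and 0 to 1 between pools. DESeq2 called 1 member for the line difference in the EGF response and 4 between pools.

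Over all genes, edgeR on the recovered reads called 7152 in TGF-beta medium and 6903 without EGF, against 7226 and 6969. MTO54 alone gave 3782. Without both pool 2 EGF-free libraries, which had low RNA concentrations, 3804 genes and 7 members (5 higher, 2 lower) were called. This alternative was chosen after seeing the data and leaves 1 EGF-free library per APT line. With all APT libraries, limma called 337 genes for the line difference in the EGF response and DESeq2 called 640. Leaving out 1 library gave 343 to 2384 genes for the line difference in the TGF-beta response (1126 with all), 80 to 982 for that in the EGF response, and 366 to 1117 between pools (1489 with all). Scaled to library totals, 34.8% of the genes called for the line difference in the EGF response were higher, against 46.3%. With the pool as a replicate block, 16 members were called in TGF-beta medium and 10 without EGF. The block gave 12 for the difference of the responses (Creld2 added) and 1 between the AKP lines. It gave 0 for the line difference in either response and 0 between the APT lines. Beyond the genes named beside the results it changed no other call. It was not fitted between genotypes or between pools. DESeq2 was not run between genotypes. Reads limit only Derl3; 2 libraries per group limit the rest.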

Other observations

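The enzymes that attach and trim N-linked sugars, a step between the translocon and the calnexin cycle, were tested as a further list. Of 14 genes of the oligosaccharyltransferase and the glucosidases, 9 fell and 1 rose in TGF-beta medium, against 25.7% and 27.0% of all genes tested. The median log2 change was -0.75 against 0.02 over all genes. Ddost, a subunit of the transferase, went from 7415 ± 1398 to 3676 ± 413 normalised reads (SD, n = 4; adjusted p = 0.000256), and Ganab, the catalytic subunit of glucosidase II, from 7544 ± 554 to 4139.9 ± 429 (log2 change -0.87, adjusted p = 0.000568). Without EGF 5 of the 14 fell and 0 rose, against 21.7% and 26.8% of all genes tested, with a median of -0.42. Krtcap2, another transferase subunit, fell in both media, with log2 changes of -1.06 and -1.30 (adjusted p = 0.00102 and 0.000652), and so did Ostc (-0.76 and -0.63).

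Of 29 genes of transport between the ER and the Golgi, 9 fell and 3 rose in TGF-beta medium, against 25.7% and 27.0% of all genes tested. Without EGF 2 fell and 2 rose, against 21.7% and 26.8%. Sec24d, a cargo receptor of the COPII coat, had a log2 change of -1.08 in TGF-beta medium (adjusted p = 0.00028), and Kdelr3, a receptor that returns chaperones to the ER, of 1.10 (adjusted p = 0.00316). Mia3, which loads collagen at ER exit sites, rose without EGF (1.11, adjusted p = 0.00244). The list medians were -0.21 and -0.08.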
